A study of Homo sapiens with 4 samples.

Results

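The expression of 9 transcription factor genes of the erythroid and megakaryocytic program was compared between cells with and without knockdown of LDB1. They are GATA1, GATA2, ZFPM1 (which encodes FOG1), KLF1, NFE2, MAFG, GFI1B, MYB and IKZF1. They were chosen by name for their role, with earlier results of these data known. Each had 1 entry among the 28412 genes of the deposited table, and each passed the filter of a mean of at least 1 FPKM (fragments per kilobase of gene length, corrected for library depth) that left 13300 genes to test. RNA-seq was performed on 4 libraries of a leukemia line labelled NB4, a line of promyelocytes. In 2 libraries the genotype was control and the cells held the vector sh-NC, with no treatment. In the other 2 the genotype was LDB1 knockdown, by the lentiviral shRNA vector sh-LDB1. The labels name no further allele or agent and do not say which of the study's LDB1 shRNAs was sequenced, so the results describe a single line and an shRNA that is not named. Nothing states that the replicates were separate cultures, so each p-value measures only the spread between these libraries, which may be technical.

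In red cell precursors LDB1, an adaptor without a DNA-binding domain of its own, is brought to DNA by a complex in which LMO2 bridges GATA1 or GATA2 with the E-box factor TAL1. GATA2 acts in progenitors and at many sites gives way to GATA1 as the cells mature, with FOG1 as a cofactor of GATA1. KLF1 binds CACCC elements of globin and red cell membrane genes, NFE2 binds DNA as a dimer with a small MAF protein such as MAFG, GFI1B represses genes through the LSD1-CoREST complex, MYB keeps progenitors dividing, and IKZF1 (Ikaros) is a zinc finger factor of lymphoid and early blood cells.

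The start-site sequences of the members are shown for KLF1 and GFI1B, the genes with the largest falls among those whose promoters held a GATA match, and for GATA1 as a contrast that held KLF motifs only. RefSeq (GRCh38.p14) gave 12 promoters of 300 bases for 8 members, and NFE2 had no entry. The first 250 bases before the start site and 20 bases from it are printed on the strand of the gene. In the KLF1 and GFI1B sequences capitals mark matches, on either strand, to the GATA motifs AGATAA and AGATAG as well as TGATAA and TGATAG, and to CAGATG (the E box of TAL1). In the GATA1 sequence capitals mark CACCC or CGCCC (KLF) on either strand, which can overlap.
KLF1, chr19:12887182-12887451, minus strand: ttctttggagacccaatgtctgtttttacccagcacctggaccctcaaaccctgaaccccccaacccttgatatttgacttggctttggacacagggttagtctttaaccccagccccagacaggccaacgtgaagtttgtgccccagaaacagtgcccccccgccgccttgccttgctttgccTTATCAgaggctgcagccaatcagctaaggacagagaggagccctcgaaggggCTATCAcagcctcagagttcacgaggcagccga
GFI1B, the first start, chr9:132945281-132945550, plus strand: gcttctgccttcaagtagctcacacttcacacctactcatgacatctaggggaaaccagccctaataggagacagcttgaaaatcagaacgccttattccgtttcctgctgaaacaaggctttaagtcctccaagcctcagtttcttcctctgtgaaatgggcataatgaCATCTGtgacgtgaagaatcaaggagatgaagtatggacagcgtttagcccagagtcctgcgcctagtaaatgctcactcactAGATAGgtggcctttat
GFI1B, the second start, chr9:132978444-132978713, plus strand: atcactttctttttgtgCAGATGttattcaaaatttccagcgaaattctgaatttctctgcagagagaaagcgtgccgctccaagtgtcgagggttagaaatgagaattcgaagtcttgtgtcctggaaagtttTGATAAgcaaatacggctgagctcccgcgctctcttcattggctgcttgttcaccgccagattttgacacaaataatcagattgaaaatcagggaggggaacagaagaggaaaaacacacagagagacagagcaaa
GATA1, chrX:48786340-48786609, plus strand: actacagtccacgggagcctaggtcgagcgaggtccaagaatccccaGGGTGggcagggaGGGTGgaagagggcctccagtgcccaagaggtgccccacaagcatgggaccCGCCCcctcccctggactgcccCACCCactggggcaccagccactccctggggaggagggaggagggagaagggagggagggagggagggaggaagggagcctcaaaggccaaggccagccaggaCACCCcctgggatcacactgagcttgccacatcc

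The KLF1 promoter held 2 GATA matches, both on the opposite strand, at positions -66 and -13 from the start site. In GFI1B the first start had a GATA match at position 4 and an E box at -80, and the second start had a GATA match at -116 and an E box at -233. Across the 12 promoters, a GATA motif was found in 4, or 33.3%, which belonged to KLF1, GFI1B and IKZF1, against 25.0% of 35116 promoters of the same length. A TAL1 E box was found only in the 2 GFI1B promoters, against 14.7% of all promoters. KLF motifs were common everywhere, in 75.0% of the members' promoters and 78.2% of all promoters, and the MYB core AACNG was in 66.7% and 77.2%. The cores TGANTCA of NFE2 and AATCAC of GFI1B were in 0 of the 12 promoters, against 7.71% and 10.2% of all promoters. An IKZF1 start held 3 GATA matches, at -106, -72 and -2, and IKZF1 had a log2 fold change of -0.61. The MYB and GATA1 promoters held no GATA match, and these genes were at -2.61 and -1.83. These matches describe letters in a short window and were not tied to any binding. A link between the matches and the size of a fall was not tested.

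The label of the line was checked before the members were compared. Of 12 granulocyte and promyelocyte markers, 8 had values to analyse, and their summed level stood at 13.1 and 11.7 FPKM in the controls, and the knockdown libraries gave 41.4 and 37.9 FPKM. ELANE (neutrophil elastase), which promyelocytes make, was listed at 0 in 3 of the 4 libraries, and replicate 1 of sh-LDB1 had 0.182 FPKM. The protease gene PRTN3 was between 1.18 and 1.29 FPKM in sh-NC and between 4.50 and 5.50 FPKM in sh-LDB1. The highest of the 8 in the knockdown was LYZ, which went from 5.85 and 5.61 to 19.3 and 19.1 FPKM. Next was CSF3R, which went from 1.10 and 1.08 to 9.46 and 8.49 FPKM. Of 6 tested markers of this type, 3 rose past the thresholds given below and 0 fell. Past these thresholds, 9.50% of all genes tested rose and 10.3% fell. The 10 erythroid markers, by contrast, summed to 3506 and 3666 FPKM in sh-NC and to 294.8 and 260.3 FPKM in sh-LDB1, with all 10 past the thresholds given below as lower. The data therefore go against the promyelocyte label in part, and the libraries are named here only by their vectors. Summed megakaryocyte markers went from 9.10 and 8.27 FPKM in the controls to 4.19 and 3.80 FPKM in the knockdown. That fall was all in TUBB1, which went from 5.97 and 5.41 to 0.286 and 0.378 FPKM. The other megakaryocyte markers with values had slightly higher means in the knockdown. Monocyte markers went from 0.540 and 0.272 to 1.02 and 1.22 FPKM. Mast cell markers went from 0.349 and 0.200 to 0.158 and 0.0501 FPKM, and B cell markers from 0.748 and 1.25 to 2.15 and 1.51 FPKM. T cell markers went from 24.8 and 22.2 to 48.4 and 51.2 FPKM, mostly CD3D. Of the fibroblast and endothelial genes, COL1A1, COL1A2, COL3A1 and PECAM1 were each under the filter, with at most 1.18 FPKM in any library, while the epithelial keratin KRT18 went from 77.1 and 80.9 to 199.0 and 204.1 FPKM. The part of these marker shifts in the results on the members was not tested. In bulk RNA, fewer cells of a type and less RNA per cell cannot be told apart.

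The libraries held between 14442490 and 16738350 reads, recovered from the steps of the FPKM values. The correlation of log2(FPKM + 1) across genes was 0.985 and 0.984 between replicates and from 0.856 to 0.863 between groups. LDB1 (chromosome 10, 102106489 to 102120368, minus strand), the targeted gene, had 135.1 and 120.1 FPKM in the sh-NC pair against 10.2 and 9.47 FPKM in the sh-LDB1 pair, which left 7.73% of its level (log2 fold change -3.56, limma adjusted p = 6.93e-05).

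All 9 regulators were lower in the knockdown, by between 1.16-fold and 8.30-fold of mean FPKM, and none was higher. By the rule that asked for a limma adjusted p below 0.05 and a fold change of more than 2 on the log2(FPKM + 1) scale, 5 of the 9 fell, KLF1, NFE2, MYB, GFI1B and GATA1. By the same rule 10.3% of all genes tested were lower and 9.50% higher, 19.8% in either direction. By the adjusted p alone, all 9 were lower, against 37.4% lower, 29.9% higher and 67.4% in either direction among all genes tested. The control and knockdown values did not overlap for any of the 9, where 46.3% of all genes tested were lower without overlap, 38.3% higher, and 84.6% either. The median log2 fold change of the 9 was -1.83, against -0.08 over all genes tested.

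**Figure D1:**
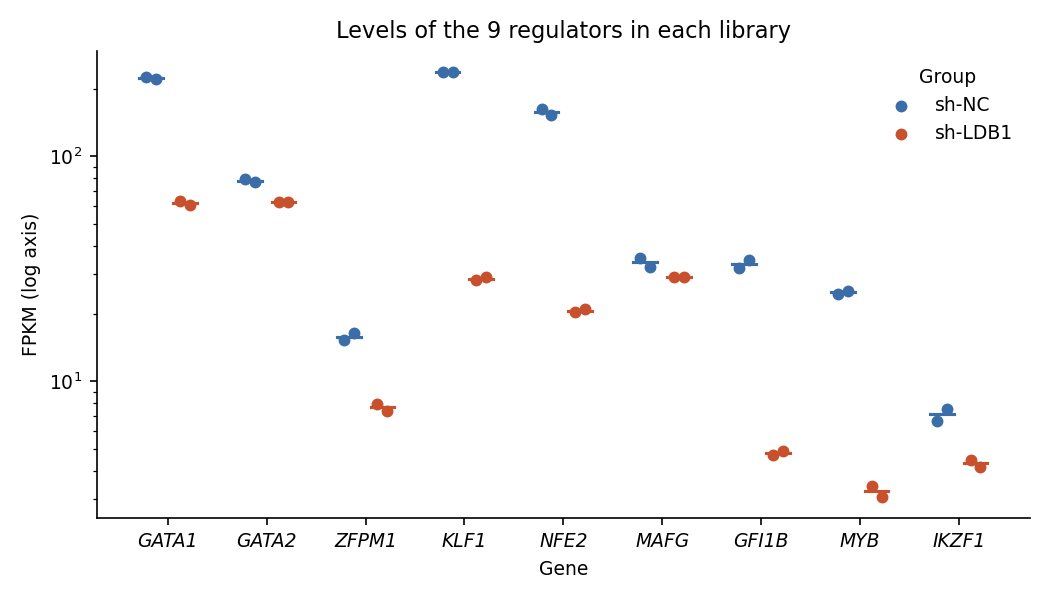
FPKM of each regulator (log axis) in the 2 sh-NC (blue) and 2 sh-LDB1 (red) libraries, with points for libraries and a bar for each group mean. KLF1 went from 237.5 to 28.6 FPKM while GATA2 went from 77.9 to 62.9 FPKM, and the libraries of the groups do not overlap for any gene.

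GATA1 (ENSG00000102145; chromosome X, 48786540 to 48794311, plus strand, GRCh38), the GATA factor of maturing red cells, measured 226.7 and 222.2 FPKM in the control libraries against 63.3 and 61.1 FPKM after knockdown. The knockdown libraries sat close together and far below the controls. The mean fell from 224.4 ± 3.22 to 62.2 ± 1.60 FPKM (SD, n = 2), a log2 fold change of -1.83 (SE 0.0418, 95% interval -1.95 to -1.72, limma adjusted p = 7.03e-05). This left 27.7% of the control level, from 4914 and 5503 reads in the controls to 1386 and 1522 in the knockdown.

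GATA2 (ENSG00000179348; chromosome 3, 128479427 to 128493201, minus strand), the GATA factor of progenitors, stood at 79.1 and 76.6 FPKM in the controls, and the knockdown libraries gave 62.8 and 62.9 FPKM. Its groups were apart by much less than those of GATA1. The means were 77.9 ± 1.74 and 62.9 ± 0.116 FPKM (SD, n = 2), with 80.7% of the control level left. The log2 fold change of -0.30 (95% interval -0.41 to -0.20, limma adjusted p = 0.00282) passed the p threshold and not the fold threshold. It was smaller under other scalings, -0.14 by the summed FPKM of each library (adjusted p = 0.0435) and -0.21 by the median of ratios (adjusted p = 0.0107).

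The ratio of GATA1 to GATA2, which needs no scaling between libraries, was 2.87 and 2.90 in the controls against 1.01 and 0.970 after knockdown. The 2 genes were thus at about the same FPKM after the knockdown, and the groups did not overlap. The mean ratio was 2.91-fold lower, at 0.989 ± 0.0273 against 2.88 ± 0.0229 (SD, n = 2). An exact permutation test, two-sided, gave p = 0.333, which is the smallest that 2 libraries against 2 can give. GATA1 made up 74.1% and 74.3% of the summed FPKM of the pair in the controls, and after knockdown it made up 50.2% and 49.2%. That sum itself went from 305.8 and 298.8 FPKM to 126.1 and 124.0 FPKM.

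ZFPM1 (ENSG00000179588; chromosome 16, 88453280 to 88537031, plus strand) encodes FOG1, the zinc finger cofactor that binds GATA1. It had 15.2 and 16.4 FPKM in the sh-NC pair against 7.93 and 7.39 FPKM in the sh-LDB1 pair, with 48.4% left. The groups were well apart, and the difference lay at the edge of the fold threshold, with a log2 fold change of -0.96 (95% interval -1.13 to -0.78, limma adjusted p = 0.000418). It was past that threshold in 5 of 13 alternative settings, with -1.04 at a pseudocount of 0.1. Leaving out replicate 1 of sh-NC or of sh-LDB1 gave -1.01 and -1.002.

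KLF1 (ENSG00000105610; chromosome 19, 12884422 to 12887201, minus strand) had the largest fall of the 9. Its level measured 237.7 and 237.4 FPKM in the control libraries against 28.2 and 29.0 FPKM after knockdown. Replicates of each group were nearly equal, and the highest knockdown library was far under the lowest control. The mean fell from 237.5 ± 0.214 to 28.6 ± 0.507 FPKM (SD, n = 2), or 8.30-fold, with a log2 fold change of -3.01 (SE 0.0386, 95% interval -3.11 to -2.91, limma adjusted p = 6.77e-05). Of the 13300 genes tested, 26 had a larger fall on the log2(FPKM + 1) scale. That scale understates the falls of low genes, so this is not a rank by fold of mean FPKM. LTBP1 and MTCH2, for example, were not among the 26, with log2 fold changes of -2.84 and -2.95. Their mean FPKM fell 11.1-fold and 9.59-fold, which is more than that of KLF1. In the order of FPKM, 136 genes were above KLF1 in sh-NC and 1586 in sh-LDB1.

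NFE2 (ENSG00000123405; chromosome 12, 54292111 to 54301015, minus strand), the larger subunit of the NF-E2 factor, stood at 162.9 and 153.3 FPKM in the controls, and the knockdown libraries gave 20.2 and 21.0 FPKM. Both knockdown libraries were lower than both controls by a wide margin. The mean fell from 158.1 ± 6.82 to 20.6 ± 0.501 FPKM (SD, n = 2), which left 13.0%, with a log2 fold change of -2.88 (SE 0.0501, 95% interval -3.01 to -2.75, limma adjusted p = 6.77e-05).

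MAFG (ENSG00000197063; chromosome 17, 81918270 to 81927735, minus strand), the small MAF partner, had 35.4 and 32.2 FPKM in the sh-NC pair against 29.1 and 29.0 FPKM in the sh-LDB1 pair. It kept 86.0% of its level, the most of the 9. The log2 fold change was -0.21 (95% interval -0.37 to -0.05, limma adjusted p = 0.0318), and this call was lost in 7 of 13 alternative settings. The adjusted p was 0.0521 without replicate 1 of sh-NC, 0.127 without replicate 1 of sh-LDB1 and 0.132 without its replicate 2. Scaling by the summed FPKM of each library gave -0.04 (adjusted p = 0.567).

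The ratio of NFE2 to MAFG turned over with the knockdown, from 4.60 and 4.76 in sh-NC to 0.696 and 0.722 in sh-LDB1. NFE2 mRNA was thus the more abundant of the pair in both control libraries and the less abundant in both knockdown libraries. The mean ratio was 6.60-fold lower, at 0.709 ± 0.0185 against 4.68 ± 0.108 (SD, n = 2), with an exact permutation p = 0.333, again the smallest possible.

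GFI1B (ENSG00000165702; chromosome 9, 132944000 to 132991687, plus strand), the repressor, measured 31.7 and 34.5 FPKM in the control libraries against 4.71 and 4.92 FPKM after knockdown. The groups were far apart against the spread within them. The mean fell from 33.1 ± 1.96 to 4.81 ± 0.142 FPKM (SD, n = 2), or 6.88-fold, with a log2 fold change of -2.55 (SE 0.062, 95% interval -2.72 to -2.39, limma adjusted p = 7.41e-05).

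MYB (ENSG00000118513; chromosome 6, 135181308 to 135219173, plus strand), the progenitor factor, stood at 24.5 and 25.3 FPKM in the controls, and the knockdown libraries gave 3.41 and 3.07 FPKM. Its fall was among the largest of the 9, and in the knockdown it was the lowest of them. The mean fell from 24.9 ± 0.594 to 3.24 ± 0.241 FPKM (SD, n = 2), which left 13.0%, with a log2 fold change of -2.61 (SE 0.0639, 95% interval -2.78 to -2.44, limma adjusted p = 7.46e-05). The knockdown values rested on 300 and 255 reads.

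IKZF1 (ENSG00000185811; chromosome 7, 50304068 to 50405101, plus strand) was the lowest of the 9 in control cells. It had 6.68 and 7.56 FPKM in the sh-NC pair against 4.47 and 4.17 FPKM in the sh-LDB1 pair, with 60.6% left. The groups did not overlap, and the log2 fold change of -0.61 (95% interval -0.83 to -0.39, limma adjusted p = 0.00302) passed the p threshold and not the fold threshold.

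**Figure D2:**
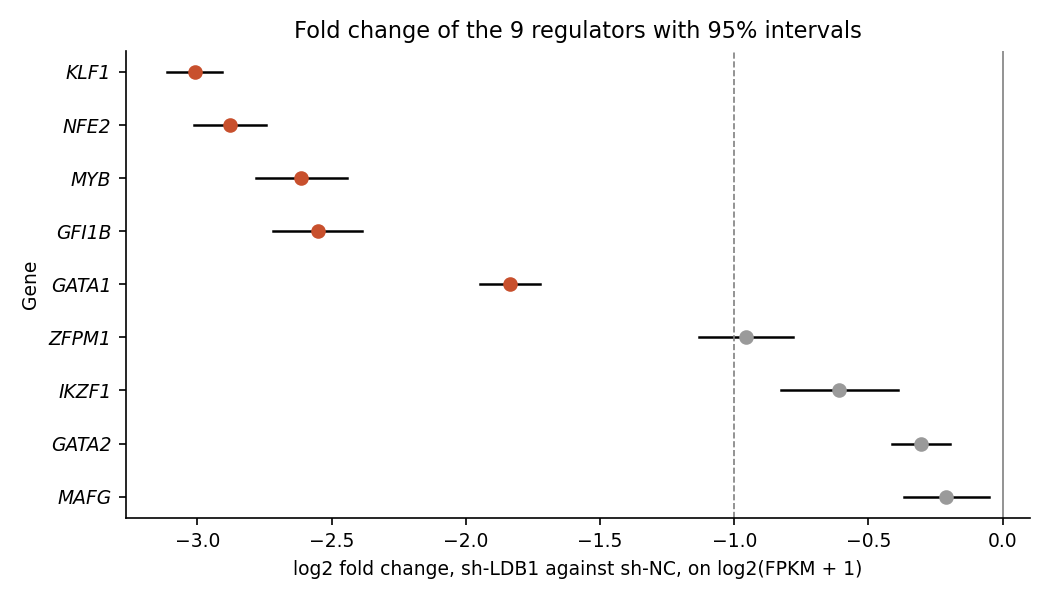
Log2 fold change (sh-LDB1 against sh-NC, on log2(FPKM + 1)) of each regulator with its 95% interval from limma, red where past both thresholds, the dashed line at the fold threshold. The 5 red genes run from -3.01 (KLF1) to -1.83 (GATA1), and ZFPM1 at -0.96 has an interval across the threshold.

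Ordered by FPKM in sh-NC, the genes ran KLF1, GATA1, NFE2, GATA2, MAFG, GFI1B, MYB, ZFPM1 and IKZF1. Neighbours in this order differed beyond the ranges of their replicates except MAFG and GFI1B, whose means were 0.668 FPKM apart. In sh-LDB1 the order was GATA2, GATA1, MAFG, KLF1, NFE2, ZFPM1, GFI1B, IKZF1 and MYB. GATA2 and GATA1 overlapped there, and MAFG and KLF1 were 0.452 FPKM apart, less than the larger SD of the pair. The 9 genes summed to 819.9 and 805.4 FPKM in the controls and to 224.2 and 222.5 FPKM in the knockdown.

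Shares of that sum moved unevenly. GATA1 took 27.6% in sh-NC and 27.8% in sh-LDB1 on average, a difference smaller than the SD of its share between the knockdown replicates (0.565 percentage points). KLF1 went from 29.2% to 12.8% and NFE2 from 19.4% to 9.23%. The share of GATA2 went the other way, from 9.58% to 28.1%, as did that of MAFG, from 4.16% to 13.0%. A higher share here came with a lower level, since the sum itself was lower.

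**Figure D3:**
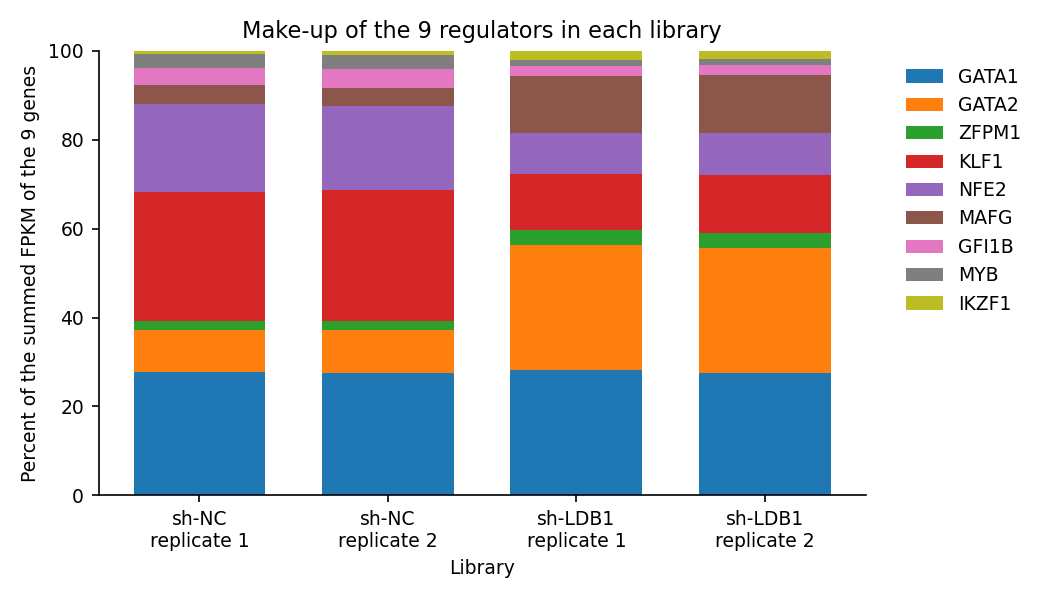
Percent of the summed FPKM of the 9 regulators taken by each gene in each library. KLF1 (red) shrinks from 29.2% to 12.8% and GATA2 (orange) grows from 9.58% to 28.1%, while GATA1 (blue) is at 27.6% and 27.8%.

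Relatives and partners of the 9 factors were counted by family. Over all genes tested, 10.3% fell and 9.50% rose past both thresholds, 19.8% in either direction. Each count of relatives, partners and targets is to be read beside these shares. Of 6 other GATA and FOG family genes, 3 passed the filter and 0 passed both thresholds. TRPS1, an atypical GATA repressor, measured 1.05 and 1.15 FPKM in the control libraries against 2.37 and 2.40 FPKM after knockdown (log2 fold change 0.69, limma adjusted p = 0.00445), and ZFPM2 (FOG2) had a log2 fold change of -0.56 (adjusted p = 0.00681). GATA5 was at -0.01 (95% interval -0.31 to 0.28), and GATA3, GATA4 and GATA6 were under the filter. Among 8 relatives and partners of NFE2, 0 passed both thresholds and 3 were higher and 1 lower by adjusted p alone, with a median of 0.12. NFE2L2 (NRF2), the related factor of the oxidative stress response, stood at 16.8 and 17.2 FPKM in the controls, and the knockdown libraries gave 29.4 and 31.7 FPKM, a log2 fold change of 0.81 (limma adjusted p = 0.000407). The small MAF genes MAFK and MAFF were higher by 0.57 and 0.42 on the log2 scale. KEAP1, the inhibitor of NRF2, was at -0.12 (adjusted p = 0.0482). That is less than the 0.15 by which scaling by the summed FPKM of each library moves the median gene.

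Of 15 genes of the NuRD and CtBP complexes that FOG1 recruits, 14 were tested. Of these 2 fell and 0 rose, where 10.3% of all genes tested fell and 9.50% rose. By adjusted p alone 12 of the 14 were lower and 1 higher (median -0.41), against 37.4% and 29.9% of all genes tested. The histone-binding subunits RBBP4 and RBBP7 fell with log2 fold changes of -1.23 and -1.16 (limma adjusted p = 0.000145 and 0.000175). HDAC1, a deacetylase of the complex, was at -0.58 and GATAD2A at -0.44, while GATAD2B was higher at 0.46. Of 7 tested LSD1-CoREST genes, through which GFI1B acts, 0 passed both thresholds. KDM1A, the demethylase LSD1 itself, had 63.6 and 62.9 FPKM in the sh-NC pair against 31.9 and 32.9 FPKM in the sh-LDB1 pair (log2 fold change -0.94, limma adjusted p = 0.000152), short of the fold threshold. RCOR1, PHF21A and HMG20B were higher by 0.43, 0.37 and 0.28. GFI1, the paralog of GFI1B, was between 0.0801 and 0.187 FPKM in all 4 libraries.

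Of 5 tested MYB relatives and coactivators, only MYBL2, a cell cycle factor, fell past both thresholds, from 98.3 and 94.97 FPKM to 36.6 and 33.5 FPKM (log2 fold change -1.44, limma adjusted p = 0.000139). The acetyltransferase genes EP300 and CREBBP were higher by 0.58 and 0.49. Of 3 tested Ikaros relatives, 0 passed both thresholds, with IKZF3 at -0.93, IKZF5 at -0.37 and IKZF4 at 0.60. Of the 13 tested genes of the LDB1 complex itself, LDB1 included, 5 fell and 0 rose, with a median of -0.81. The shares of all genes tested were 10.3% and 9.50%. TAL1 measured 30.2 and 30.5 FPKM in the control libraries against 5.72 and 6.92 FPKM after knockdown (log2 fold change -2.10, limma adjusted p = 0.000154). The others were LMO2 at -2.19, the corepressor CBFA2T3 (ETO2) at -1.48 and the TAL1 paralog LYL1 at -1.37.

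Genes that the members are known to activate were counted by lineage. Of 31 tested erythroid targets, 27 fell and 0 rose by both thresholds, with a median log2 fold change of -2.30. Among all genes tested 10.3% fell and 9.50% rose by this rule. HEMGN, a target of GATA1, stood at 186 and 206 FPKM in the controls, and the knockdown libraries gave 1.77 and 1.71 FPKM, a log2 fold change of -6.16. SLC4A1 (band 3), the anion exchanger of the red cell membrane, fell with a log2 fold change of -4.15, the embryonic globin HBZ with -4.69 and the glycophorin GYPC with -2.30 (limma adjusted p = 6.77e-05 for HEMGN and each of these). The 4 that were not past both thresholds were EPB41, HBD, KLF3 and TRIM58, at -0.62 to -0.17. Some of those that fell, such as SLC4A1, AHSP, HBM and CD36, were under 1 FPKM in both knockdown libraries. They passed the filter only through sh-NC. The alpha and gamma globin genes are near-identical pairs, so the split of reads between HBA1 and HBA2 or HBG1 and HBG2 is uncertain.

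Megakaryocyte targets were mostly low in every library. Of 22 genes 16 had a value and 9 were tested, of which 2 fell, and 1 of these was the member GFI1B. The other was TUBB1, the platelet tubulin, at 5.97 and 5.41 FPKM in sh-NC and 0.286 and 0.378 FPKM in sh-LDB1 (limma adjusted p = 0.000165). NBEAL2, needed for platelet granules, was higher by 0.85 and LIMS1 was at -0.74, and the median was 0.14. Of 10 mast cell and basophil targets of GATA2 only 2 were tested. KIT, the stem cell factor receptor, fell with a log2 fold change of -1.32, from 2.57 and 2.66 FPKM to 0.449 and 0.440 FPKM. The lectin gene SIGLEC6 rose with 1.41 from 0.0961 and 0.105 FPKM, or 4 reads in each control, to 1.72 and 2.16 FPKM. TUBB1, KIT and SIGLEC6 each passed the filter only through the group where it was high, so these calls only describe.

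Of 9 tested targets of MYB, 6 fell and 1 rose, against 10.3% and 9.50% of all genes tested, with a median of -1.14. MYC had 159 and 161 FPKM in the sh-NC pair against 27.3 and 28.1 FPKM in the sh-LDB1 pair, a log2 fold change of -2.49. MAT2A, the enzyme of S-adenosylmethionine synthesis, and CCNB1, the mitotic cyclin, were at -1.42 and -1.13, and ADA (adenosine deaminase) rose with 1.05. LMO2 stands on this list and on that of the LDB1 complex. KIT is also counted above among the targets of GATA2, and it passed the filter only through sh-NC. HBS1L, another of those that fell, is also the neighbour of MYB on the chromosome. The lists were written with earlier results of these data known, so their counts describe and support nothing further.

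**Figure D4:**
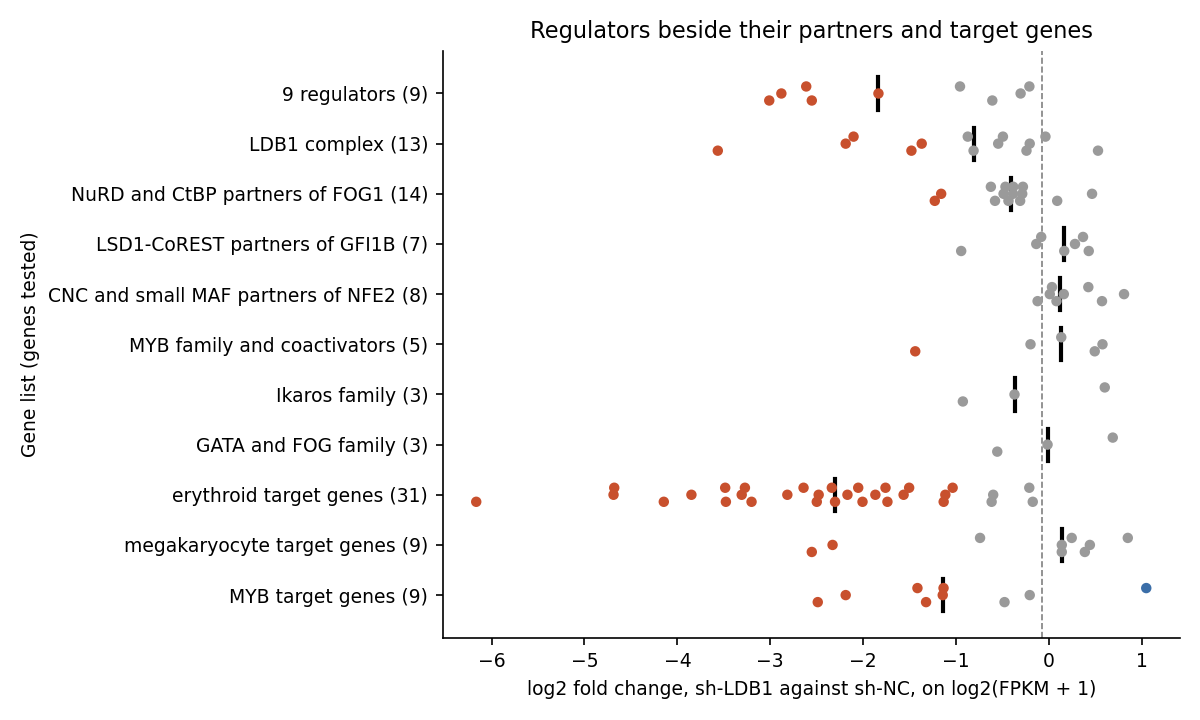
Log2 fold change (sh-LDB1 against sh-NC, on log2(FPKM + 1)) of every tested gene of each list, with a black tick at the list median, a dashed line at the median of all genes (-0.08), and red or blue points past both thresholds as lower or higher. The medians of the 9 regulators (-1.83) and their erythroid targets (-2.30) lie to the left, and those of the NFE2 relatives (0.12) and megakaryocyte targets (0.14) to the right of 0.

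The genes beside the members on the chromosome were examined in the same fit. Of the adjacent protein-coding genes, HNRNPA1 beside NFE2, whose reads could be shared with its processed pseudogenes, fell from 443 and 419 FPKM to 131 and 128 FPKM (log2 fold change -1.73, limma adjusted p = 8.3e-05), and HBS1L beside MYB fell with -1.14. COPZ1, which starts 187 bases from NFE2 on the other strand, measured 55.5 and 60.1 FPKM in the control libraries against 53.5 and 54.3 FPKM after knockdown (log2 fold change -0.10, adjusted p = 0.168). DNASE2 and GCDH, on either side of KLF1, were at 0.55 and -0.64. HDAC6 beside GATA1 was higher by 0.35, RPN1 beside GATA2 by 0.43 and AHI1 beside MYB by 0.63. The remaining tested neighbours were between -0.77 (GTF3C5, beside GFI1B) and 0.05 (PYCR1, beside MAFG).

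Several members overlap another gene, and since the use of strand in the counting was not stated, reads in the shared bases are uncertain. GATA2-AS1, opposite GATA2, stood at 11.3 and 9.86 FPKM in the controls, and the knockdown libraries gave 11.4 and 10.3 FPKM (log2 fold change 0.04, limma adjusted p = 0.735). The transcripts that overlap ZFPM1, NFE2, MAFG and IKZF1 on the opposite strand had negative values. ENSG00000261744 opposite ZFPM1 was at -0.95 (limma adjusted p = 0.0045), ENSG00000258344 opposite NFE2 at -0.78 (adjusted p = 0.00256) and ENSG00000264769 opposite MAFG at -0.76 (adjusted p = 0.0499), and these 3 passed the p threshold and not the fold threshold. ENSG00000285165 opposite IKZF1 was at -0.68 (adjusted p = 0.205), with overlapping groups. TSC1 opposite GFI1B was higher by 0.39, and SIRT7, which overlaps MAFG on its strand, also by 0.39. The divergent transcript MAFG-DT was at 0.33 (adjusted p = 0.0425), and MYB-AS1 was under the filter.

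Finally, the genes whose log2(FPKM + 1) profile over the 4 libraries, centred on its mean, lay closest to that of a member were listed by root mean square difference. For GATA1 they were MYL4 (0.0127), NUP155 (0.0201) and SLC25A37, the mitochondrial iron importer (0.0256). MYL4 had 117.9 and 114.2 FPKM in the sh-NC pair against 32.1 and 31.7 FPKM in the sh-LDB1 pair. For KLF1 they were HSPD1 (0.0378), the globin locus transcript BGLT3 (0.0543) and MTCH2 (0.0547), and for NFE2 they were PUF60 (0.013), the water channel AQP1 (0.0277) and LTBP1 (0.0532). For MYB they were DNAJC6 (0.0101), MFSD2B (0.0387) and PVT1 (0.0459). For GATA2, whose change was small, FAM83D, UBTF and FLNA differed by 0.00468 to 0.00557. With 4 libraries in 2 groups, likeness of this kind rests mainly on the size of the group difference.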

How the data were processed

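RNA-seq of total RNA (Illumina TruSeq kit) was available for 2 sh-NC and 2 sh-LDB1 libraries, grouped by the sample labels. The authors deposited FPKM for 28412 genes, unpooled, and all columns were matched to a sample (0 were not). HISAT2 2.0.5 and hg38 are named in the submitters' processing notes. The gene annotation, the counter and the use of strand are not given in the sources used here.

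Genes whose mean over the libraries reached 1 FPKM were compared on log2(FPKM + 1) with limma 3.58.1 in R 4.3.3 (eBayes with a trend, Benjamini-Hochberg over 13300 genes). Calls needed an adjusted p under 0.05 together with a fold change over 2 or under 0.5. A change on this scale understates that of low genes. The steps were run on simulated data as a check of the code. That simulation held far fewer changed genes, so it does not show how the steps perform on these data. Depth was recovered as whole reads (within 0.001 read for 98.9% of genes) with GENCODE release 44 lengths, which also gave positions, in Python 3.11.15 with pandas 2.3.3 and scipy 1.17.1. Read counts varied between replicates beyond sampling noise (chi-square of 4.5 per gene for sh-NC, 2.21 for sh-LDB1).

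The members and gene lists were chosen with earlier results of these data known. Named genes were LDB1, the 9 members, up to 4 genes per list with the smallest adjusted p (ties by raw p), neighbours and overlapping genes, and the 3 genes closest in profile to each of 5 members. Genes named beyond this rule (EPB41, HBD, KLF3, TRIM58, TAL1, ADA, GATAD2B, GFI1, GATA3, GATA4 and GATA6) were chosen after their values were seen. The alternatives were other pseudocounts, filters, scalings and thresholds, a replicate block, no trend, voom on recovered reads, and each library left out in turn.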

Additional observations from a re-analysis of the deposited data

How the results depend on the processing

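Across 13 alternatives, LDB1, GATA1, GATA2, ZFPM1, KLF1, NFE2, GFI1B, MYB and IKZF1 kept their direction and a limma adjusted p below 0.05, and MAFG kept its direction only. GATA1 ranged from -1.86 to -1.67, KLF1 from -3.05 to -2.87 and GATA2 from -0.33 to -0.14. Without a fold threshold, 9 members, 3983 genes higher and 4978 lower were called. With limma treat the counts were 568 and 581. A filter of a mean of at least 5 FPKM left 710 higher genes, 1 megakaryocyte target lower, and 0 mast cell and basophil targets higher and 0 lower, because fewer genes were tested. Scaling by the summed FPKM of each library moved the median of all genes from -0.08 to 0.07. It gave 2026 higher and 1276 lower genes, against 1264 and 1371 as reported. Scaling by the median of ratios gave 1462 and 1145. Higher MYB targets ranged from 0 to 1 when libraries were left out, with ADA lost without sh-NC replicate 2. With a pseudocount of 1 the NFE2 to MAFG ratio differed by -2.67 on the log2 scale, against -2.72.

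The replicate numbers showed no sign of pairing, with a correlation of deviations between libraries of the same number of 0.0196. With 2 libraries a group this cannot show whether the replicates were prepared as pairs. The replicate block gave 1274 higher and 1386 lower genes, shared 2623 of the 2635 calls, and changed no call of a member. Leaving out a library left 1 sample in its group, which was assumed to vary like the other group. With 2 libraries a group, no permutation test could pass 0.05. No count test (edgeR, DESeq2) was run, because the plan kept it for a table of counts and the table holds FPKM. Of the group comparisons, only the voom alternative used the recovered reads.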
